A study of Rattus norvegicus with 4 samples.

Results

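ATP-binding cassette (ABC) transporter genes were examined in the colon mucosa of rats with chemically induced colitis that had or had not been fed resveratrol, a plant polyphenol. The members were all non-control probes whose gene name in the scanner files, without a trailing _predicted or _mapped, was Abc followed by a subfamily letter from a to g, a number and at most an a or b. The name alone gave 58 probes of 46 genes, out of 41012 probes of 35561 gene names on the array. Of these, 30 probes of 25 genes were bright enough, with enough unflagged spots, to be tested.

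All rats were of the inbred F344 strain, and all received DSS (dextran sodium sulphate), which injures the colonic epithelium, at 5% in their water over 5 days. The resveratrol group, 8 rats, had first been given resveratrol over 20 days at a daily 1 mg per kg. The control group, also 8 rats, had been fed standard chow. Each of 4 two-colour arrays compared RNA of 2 resveratrol rats (Cy5) with a control pool (Cy3), so every value below is a log2 ratio of resveratrol over control, and every array held different resveratrol rats. No group without DSS was analysed here, and the labels give no age or sex. The control pool is counted as 1 control sample. The labels do not say how many control rats it held or whether every array held the same pool, so the errors may leave out the spread among control rats. Since no dye was exchanged a bias of either dye cannot be told apart from the treatment.

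ABC transporters use the energy of ATP to move substrates across membranes. In the gut, Abcb1 and Abcg2 pump drugs and their conjugates from the enterocyte into the lumen together with Abcc2, while Abcc3 works at the basolateral side and returns conjugates to the blood. Resveratrol is taken up by enterocytes and leaves them largely as glucuronides and sulphates, for which Abcc2, Abcc3 and Abcg2 are carriers. Members of the A subfamily and the Abcg5 and Abcg8 pair export phospholipid and cholesterol, the D subfamily imports fatty acids into peroxisomes, and several half-transporters of the B subfamily sit in mitochondria or lysosomes.

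The sequences of 8 called probes, each 60 bases long, show where in these genes the signal was read. The first lies over the nucleotide-binding fold that all these proteins share. It holds the codons of the Walker A loop, which grips ATP and was found by translation (capitals). The second, from Abcb6, holds the codons around the conserved histidine of the H-loop (capitals). The third, from Abcc3, carries 1 of 11 hexamers that were enriched in the probes with the highest ratios on these arrays (capitals). The others are from the half-transporters Abcb9 and Abcb8 and from the lipid exporters Abcb4, Abca1 and Abcg8.
Abca3: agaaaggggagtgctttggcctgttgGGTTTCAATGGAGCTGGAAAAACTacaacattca
Abcb6: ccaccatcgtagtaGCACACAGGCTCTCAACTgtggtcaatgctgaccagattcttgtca
Abcc3: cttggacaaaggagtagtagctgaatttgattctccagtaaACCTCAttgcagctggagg
Abcb9: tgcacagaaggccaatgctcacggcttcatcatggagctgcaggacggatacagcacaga
Abcb8: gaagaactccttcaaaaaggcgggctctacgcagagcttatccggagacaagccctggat
Abcb4: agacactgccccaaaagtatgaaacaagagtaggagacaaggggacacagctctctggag
Abca1: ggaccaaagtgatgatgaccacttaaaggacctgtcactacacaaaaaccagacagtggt
Abcg8: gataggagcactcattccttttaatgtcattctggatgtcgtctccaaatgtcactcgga
The file headers place them in the rn3 build, with Abca3 at chr10:13659948-13660007 on the plus strand and Abcc3 at chr10:83001517-83001576 on the minus strand. The Abcb6 probe is placed at chr9:74602209-74602351 on the minus strand, a span of 143 bases, longer than the probe itself. An exon and UTR annotation of that build was not used here.

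Among the tested probes, 5 were higher with resveratrol, 8 were lower and 17 were not called at an adjusted p of 0.05. Over all 18869 probes tested on these arrays, 24.4% were higher and 22.7% lower by the same rule, 47.1% in all, so the members' counts lie near what the whole array gave. The members' median log2 ratio was -0.21, against -0.02 over all tested probes. Most differences were small. Only 1 called probe, from Abcc3, reached an absolute log2 ratio of 1. Without adjustment, 20 of the 30 probes had p under 0.05, where 59.1% of all tested probes did. By gene, through the brightest probe, 4 genes were higher and 8 lower, where 25.7% and 19.6% of 9428 genes were. Of the 19 members measured on all 4 arrays, 12 had the same sign on every array, 7 of them above 0 and 5 below; over all such probes the share was 63.7%. In bulk mucosa, fewer cells of a type and less RNA per cell cannot be told apart.

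**Figure D1:**
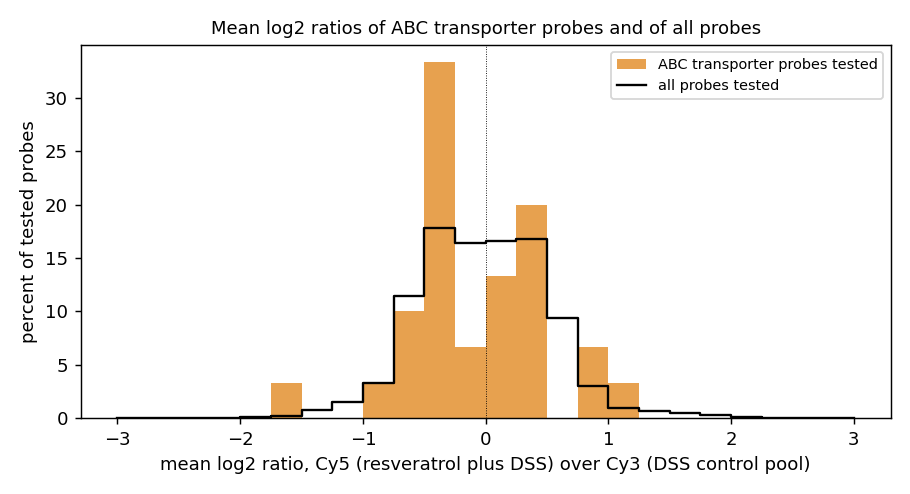
Distribution of mean log2 ratios (resveratrol plus DSS over the DSS control pool, x axis) for the 30 tested ABC transporter probes (bars) and all 18869 tested probes (line), each as a percent of its own total (y axis). The members' median of -0.21 lies below the -0.02 of all probes, and few members sit beyond 1 on either side.

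The calls were counted by subfamily and by role. In the C subfamily, which holds the multidrug resistance proteins, 3 of 6 tested probes were higher and 1 lower, with a median of 0.20. In the A subfamily, 0 of 7 were higher and 2 lower, with a median of -0.36. In the B subfamily 1 of 6 was higher and 3 lower. Over all tested probes, 24.4% were higher and 22.7% lower. Whether the subfamilies, or the roles below, differ from each other or from these shares was not tested. Arranged by what the proteins do, 3 of 7 drug and conjugate efflux probes (6 genes) were higher, both Abcc3 probes among them, and 1 lower. Of 11 lipid export probes (9 genes, Abca3 with 3 probes), 0 were higher and 4 lower. Among 8 probes for organelle transporters, 2 were higher and 3 lower, and 0 of the 4 probes for the soluble factors Abce1 and Abcf1 were called by limma, with 1 at an unadjusted p under 0.05.

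**Figure D2:**
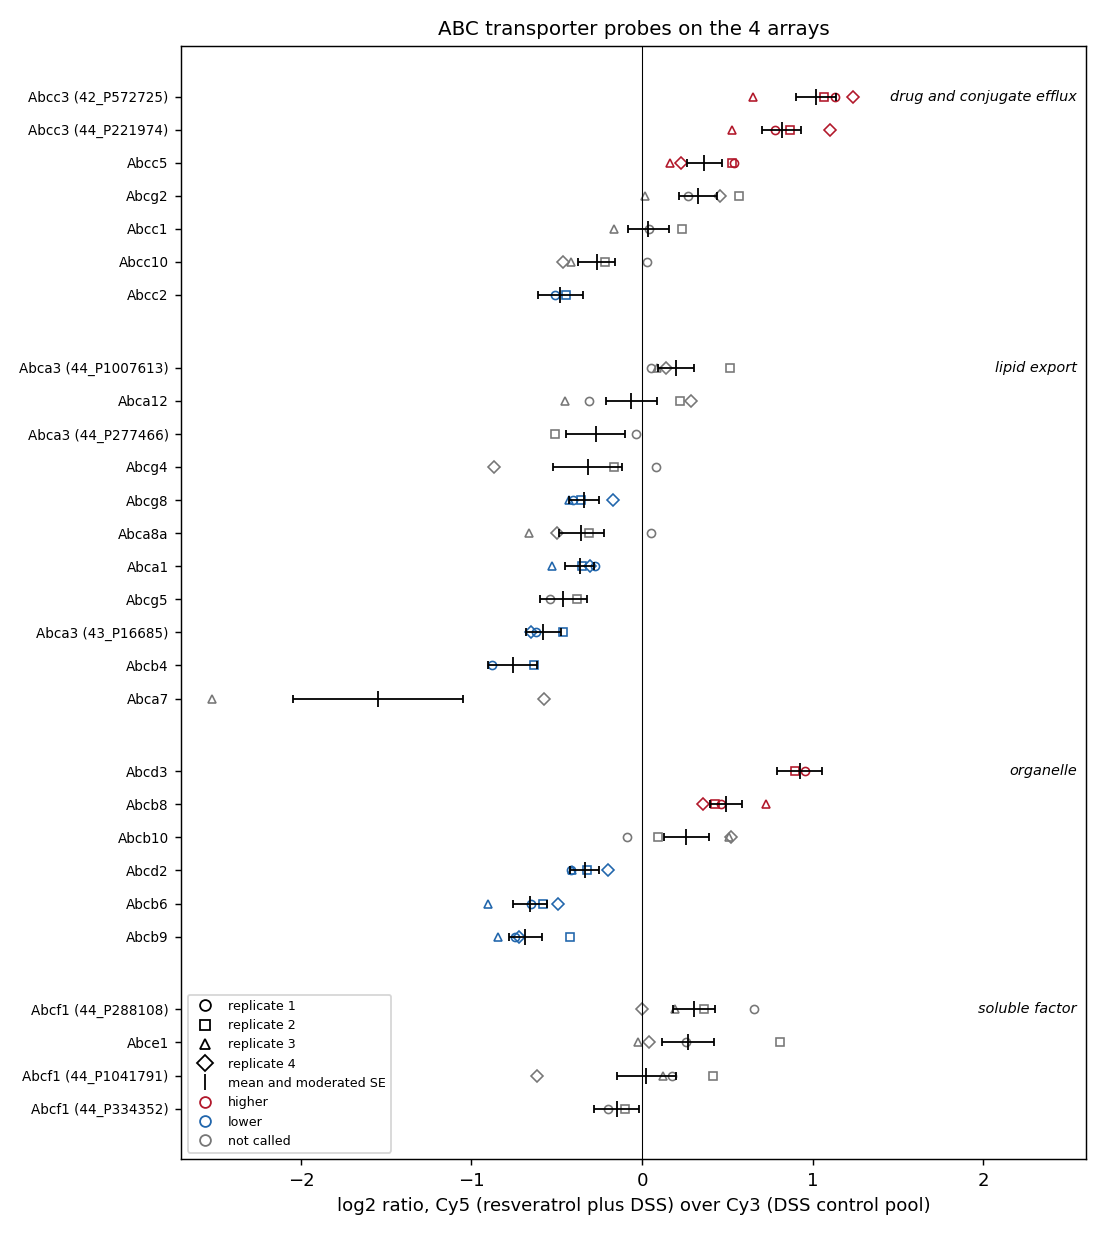
Log2 ratios (resveratrol plus DSS over the DSS control pool, x axis) of tested ABC transporter probes on each array, in rows by role. Symbols are the replicates, the vertical tick and bar are the mean and its moderated standard error, and red, blue and grey mark probes higher, lower and not called. Both Abcc3 probes lie above 0.5 on every array, and 10 of 11 lipid export probes have a mean below 0. The median of all tested probes was itself below 0, at -0.02. Under median centring Abca12, the third Abca3 probe and Abcg4 had means above 0.

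For Abcc3, the basolateral exporter of glucuronides, both probes were higher. Its first probe had log2 ratios of 1.13, 1.06, 0.65 and 1.24 on replicates 1 to 4, with Cy5 and Cy3 both clear of background throughout. The second, whose sequence is printed above, had 0.78, 0.87, 0.53 and 1.10. All 8 values lie above 0, and replicate 3 was the lowest for both probes. The means were 1.02 ± 0.12 (moderated SE, n = 4 arrays, adjusted p = 0.00475) and 0.82 ± 0.11 (n = 4, adjusted p = 0.00587). On the linear scale that is 2.03-fold and 1.76-fold. The first probe carries no enriched hexamer and stayed past the threshold under all 18 other settings tried, with means from 0.94 to 1.32. The second missed it on slide 2 alone, at the same size (0.81, adjusted p = 0.0558).

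Abcc2, the apical exporter that shares many conjugate substrates with Abcc3, had the opposite sign. Its probe is printed at 10 spots per array. On replicate 1, 7 unflagged spots averaged -0.51 ± 0.07 (SD over spots), and on replicate 2, 8 spots averaged -0.45 ± 0.10. All 10 spots were flagged as outliers by the scanner software on replicates 3 and 4, so the test rests on slide 1 (-0.48 ± 0.13, n = 2 arrays, adjusted p = 0.0464). With flagged spots kept, and given weight in the loess, the array means were -0.35, -0.31, -1.25 and -0.44, all below 0. The SDs over the 10 spots were 0.119, 0.0913, 0.115 and 0.153. Replicate 3 stood below the other arrays by more than the spots of an array spread. Abcc2 stayed past the threshold under 8 of 14 other settings and was at -0.04 under median centring (adjusted p = 0.904). Without replicate 4, which gave it no value, the adjusted p was 0.0506. Differences between members, such as Abcc3 and Abcc2, were not tested.

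**Figure D3:**
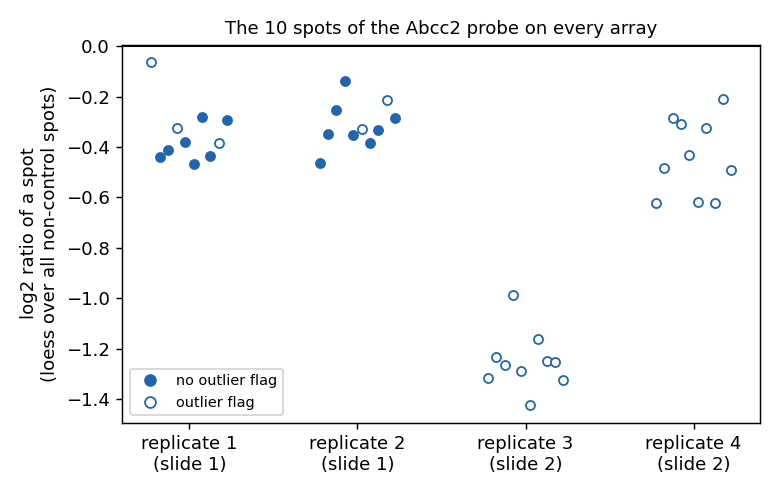
Log2 ratios (y axis) of the 10 spots of the Abcc2 probe on each array (x axis), after loess over all non-control spots. Filled points carry no outlier flag and open points carry one. Every spot is below 0, and those of replicate 3, with a mean of -1.25, lie below the spots of the other arrays.

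Abcg2, the apical breast cancer resistance protein and an exporter of resveratrol sulphates and glucuronides, had log2 ratios of 0.27, 0.57, 0.02 and 0.46 on replicates 1 to 4. All were above 0, but the mean of 0.33 ± 0.11 missed the threshold (n = 4, adjusted p = 0.0542). Cy5 was clear of background on all 4 arrays and Cy3 on 2, so Abcg2 entered through the resveratrol channel. Under 5 of 17 other settings it passed, among them the fit without replicate 3 (0.43, adjusted p = 0.0194). Abcc5, a pump for cyclic nucleotides and organic anions, had 0.54, 0.53, 0.16 and 0.23, with the 2 arrays of slide 1 above the 2 of slide 2. Its mean of 0.37 ± 0.10 passed (n = 4, adjusted p = 0.0319), with each channel well above background on only 2 arrays. On slide 2 alone Abcc5 was at 0.20 (adjusted p = 0.331), and it missed the threshold without replicate 1, 2 or 4 as well (adjusted p = 0.127, 0.138 and 0.0512) and under median centring (0.37, adjusted p = 0.0689).

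The remaining efflux carriers gave no call. Abcc1, the basolateral multidrug resistance protein first described, had 0.04, 0.23 and -0.16 on the 3 arrays with a value, on both sides of 0, and a mean of 0.04 ± 0.12 (adjusted p = 0.81). Abcc10 was at -0.27 ± 0.11 (n = 4, adjusted p = 0.0841). P-glycoprotein could not be measured at this brightness. The probe named Abcb1 in the files, which RefSeq lists as Abcb1b, and the Abcb1a probe were at background level throughout, in Cy5 as in Cy3. Both probes of Abcc4, a further basolateral pump, were too dim to be tested, and the single probe of Abcc6 had an unflagged spot on replicate 2 only (-0.65).

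Of the lipid exporters, Abcb4, a phosphatidylcholine floppase best known from the bile canaliculus, had the largest called difference. It had log2 ratios of -0.88 and -0.63 on replicates 1 and 2, and its spots on replicates 3 and 4 were flagged. The mean was -0.76 ± 0.14 (n = 2 arrays, adjusted p = 0.0218). With the flagged spots kept, all 4 values lay below 0, at -0.70, -0.49, -0.82 and -0.47. Under median centring Abcb4 was at -0.29 (adjusted p = 0.349).

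Abca3, which loads phospholipid into lamellar bodies in lung, was measured by 3 probes that did not move together. The brightest, over the Walker A codons, had -0.62, -0.46 and -0.65 on replicates 1, 2 and 4 and was lower (-0.58 ± 0.10, n = 3, adjusted p = 0.0131). A second probe had 0.05, 0.51, 0.09 and 0.14, all above 0 (mean 0.20 ± 0.11, adjusted p = 0.159). The third had -0.04 and -0.51 on the slide 1 arrays (mean -0.27 ± 0.18, adjusted p = 0.253). Averaged over its probes Abca3 was at -0.13 and not called (adjusted p = 0.259), which leaves 7 lower genes in place of 8. With flagged spots kept the brightest probe was at -0.24 (adjusted p = 0.0726), and the changed loess put its unflagged replicate 4 value at -0.05. Under median centring that probe was at -0.14 (0.588), and it was not called without replicate 1 (0.0687) or 2 (0.0568).

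Abca1, the exporter that lipidates apolipoprotein A-I, was lower by a small amount on every array, at -0.27, -0.35, -0.53 and -0.31 (mean -0.36 ± 0.09, n = 4, adjusted p = 0.0202). Cy3 was well above background on all 4 arrays and Cy5 on 1, so this probe entered through the brighter control channel. The sterol half-transporter Abcg8 had -0.41, -0.36, -0.43 and -0.17 (mean -0.34 ± 0.09, n = 4, adjusted p = 0.0245). A second Abcg8 probe stayed at background throughout and was not tested. With its partner Abcg5, Abcg8 forms the pump that returns plant sterols and cholesterol to the gut lumen. Abcg5 had -0.54 and -0.38 on slide 1 and flagged spots on slide 2. Both Abcg5 values were below 0, and their mean of -0.46 ± 0.14 missed the threshold (n = 2, adjusted p = 0.0545). Abcg5 passed under 5 of 14 other settings, with means from -0.61 to -0.08 (highest adjusted p = 0.828). Under median centring neither Abca1 (-0.32, adjusted p = 0.124) nor Abcg8 (-0.21, adjusted p = 0.324) passed, and both also missed the threshold on slide 2 alone (adjusted p = 0.104 and 0.198) and without replicate 1 (0.0665 and 0.102) or 2 (0.0843 and 0.105).

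Abcg5 and Abcg8 are transcribed away from each other from a shared stretch, printed here because both genes of the pump lay on the same side of 0. Only Abcg8 was called. In GRCr8, the RefSeq build, the 205 bases between the annotated gene starts are chr6:15717731-15717935 on the plus strand, with matches to GATAA in capitals.
Abcg5 and Abcg8: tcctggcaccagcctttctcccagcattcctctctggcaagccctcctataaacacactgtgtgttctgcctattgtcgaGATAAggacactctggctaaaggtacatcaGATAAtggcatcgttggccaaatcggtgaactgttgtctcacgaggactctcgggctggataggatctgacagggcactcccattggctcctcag
The stretch holds 2 matches to GATAA, the core recognised by GATA factors, counted on both strands. At least 1 match to GATAA occurs in 26.5% of 33469 RefSeq promoter windows of 300 bases, from 250 before to 50 after a gene start. Also searched on both strands were AGGTCA, the core shared by many nuclear receptor sites and found in 16.2% of windows, and CACGTG, an E-box found in 6.42%. Neither run of letters occurs in the stretch.

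The other lipid exporters gave no call. Abca7 had the lowest mean of all members, -1.55 ± 0.50, but from -2.52 and -0.58 on replicates 3 and 4 (adjusted p = 0.0651). With flagged spots kept its mean was -0.05. That setting also changes the loess, and the unflagged values on replicates 3 and 4 were then 0.31 and 0.04. Abca7 was lower under 3 of 14 other settings, median centring among them (-0.80, adjusted p = 0.00383). Abca8a was at -0.36 ± 0.13 with replicate 1 above 0 (0.05, -0.31, -0.66 and -0.50, adjusted p = 0.0658). Abcg4, a cholesterol exporter known mainly from brain, had 0.08, -0.17 and -0.87 on replicates 1, 2 and 4 (mean -0.32, adjusted p = 0.232), and Abca12, the lipid transporter of skin, was at -0.06 (adjusted p = 0.742). Abcg1, Abca2, Abca4 and Abca5 were too dim to test, as were both probes of the bile salt pump Abcb11. Abca8b, Abcg3, Abcc6, Abcf2 and Abcf3 were bright but had fewer than 2 unflagged values. With flagged spots kept, all 4 values were below 0 for each of these 5 genes, from -1.45 to -0.05. Most of these values come from flagged spots and none was tested. How many other flagged bright probes lie below 0 on every array was not counted.

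Among half-transporters of organelles, Abcb9 and Abcb6 were lower on every array. Abcb9, a lysosomal peptide transporter related to the antigen transporters, had -0.75, -0.42, -0.84 and -0.72 (mean -0.68 ± 0.10, n = 4, adjusted p = 0.00637). It stayed past the threshold under all 17 other settings that gave it a value, with means from -0.85 to -0.55. A second Abcb9 probe stayed at background throughout. Abcb6, which is linked to porphyrin transport, had -0.65, -0.58, -0.90 and -0.49 (mean -0.66 ± 0.10, n = 4, adjusted p = 0.00685). It was lower under 16 of 18 other settings and was not called with median centring (-0.37, adjusted p = 0.0704) and on slide 2 alone (-0.70, adjusted p = 0.0576).

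Abcb8, a half-transporter of the inner mitochondrial membrane, was higher at 0.46, 0.43, 0.72 and 0.36 (mean 0.49 ± 0.09, n = 4, adjusted p = 0.0118). Cy5 was clear of background on all 4 arrays and Cy3 on 2, so the probe entered through the resveratrol channel, where it is brighter. It was not called on slide 2 alone (0.54, adjusted p = 0.0773) or without replicate 1 (adjusted p = 0.0511) or 2 (0.0513). Abcb10, a mitochondrial half-transporter needed for haem synthesis, was at 0.26 ± 0.13 and not called (n = 4, adjusted p = 0.139). For Abcb10 the slide 1 arrays were at -0.09 and 0.10 and those of slide 2 at 0.51 and 0.52.

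The peroxisomal transporters Abcd3 and Abcd2 were called in opposite directions. Abcd3, a major protein of the peroxisomal membrane, had 0.95 and 0.90 on replicates 1 and 2 (mean 0.92 ± 0.13, n = 2 arrays, adjusted p = 0.0122). Under median centring it was at 1.39, above both Abcc3 probes. With its flagged spots kept it was above 0 on all 4 arrays, at 1.12, 1.03, 1.28 and 0.88. Abcd2, which carries very-long-chain and polyunsaturated fatty acids, was lower at -0.42, -0.32, -0.41 and -0.20 (mean -0.34 ± 0.08, n = 4, adjusted p = 0.0232). Its Cy3 signal was clear of background on all 4 arrays and Cy5 on 2, so it entered the test through the control channel, where it is brighter. It was not called under median centring (-0.29, adjusted p = 0.168), on slide 2 alone (-0.31, adjusted p = 0.182) or without replicate 1 (adjusted p = 0.102) or 2 (0.0958).

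The soluble members do not transport, and act in translation. The ribosome recycling factor Abce1 was at 0.27 ± 0.15 (n = 4, adjusted p = 0.175), and its second probe was too dim to test. Abcf1, which binds an initiation factor, had 3 tested probes with means of 0.30, 0.03 and -0.15, none called (adjusted p = 0.0824, 0.912 and 0.39). Among members on the array by other names, Cftr, the chloride channel of the C subfamily, was higher at 0.70, 0.51, 0.84 and 1.08 (mean 0.78 ± 0.11, n = 4, adjusted p = 0.00644), while its second probe, too dim to test, was below 0 on every array (-0.05, -0.34, -0.43 and -0.67). Of 2 relatives of Abcg3 named through RefSeq, Abcg3l4 was higher (0.60 ± 0.09, n = 4, adjusted p = 0.00717) and Abcg3l3 lower (-0.28 ± 0.08, n = 4, adjusted p = 0.0369). The antigen transporters Tap1 (0.02 ± 0.11, adjusted p = 0.886) and Tap2 (-0.43 ± 0.13, n = 2, adjusted p = 0.0623) were not called.

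Genes that work with the transporters were counted from lists, each gene through its brightest probe. Over all 9428 genes 25.7% were higher and 19.6% lower by the same rule, the shares to set beside every list count below. Whether any list differs from them was not tested. Of 13 tested conjugating enzymes, which attach the groups that Abcc2, Abcc3 and Abcg2 export, 5 were higher and 1 lower, with a median of 0.31. Ugt1a2, a glucuronosyltransferase, was at 0.76 ± 0.18 and Ugdh, which makes UDP-glucuronate, at 0.55 ± 0.09 (adjusted p = 0.021 and 0.00875). The sulphotransferase gene Sult2b1 was at least 1.61-fold higher, with its Cy3 signal at background throughout (adjusted p = 0.01). Ugt2b7 was lower at -0.38 ± 0.11 (adjusted p = 0.0325), with Cy5 clear of background on 1 array and Cy3 on 3. Of 8 uptake carriers, 1 was higher (Slco2a1, a prostaglandin carrier, 0.33 ± 0.09, with Cy5 clear of background on 3 arrays and Cy3 on 2) and 2 were lower, with a median of -0.23. The lower ones were the ileal bile acid carrier Slc10a2 at -0.51 ± 0.10 and the organic cation carrier Slc22a4 at -1.32 ± 0.40 on 3 arrays. Slc22a4 was at -0.78 and -0.63 on replicates 1 and 2 and at -2.56 on replicate 3.

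Of 20 tested transcription factors known to act on ABC genes, 6 were higher and 1 lower, with a median of 0.12. Hnf4a, Vdr and Srebf2 were at 1.01 ± 0.19, 0.90 ± 0.14 and 0.80 ± 0.10 (n = 4 each, adjusted p = 0.0112, 0.00727 and 0.00513), and Sp1 was at -0.46 ± 0.13 on 2 arrays. The Hnf4a, Vdr and Sp1 probes carried an enriched hexamer, as did those of Ugdh and Slco2a1 above and of B2m, Muc2 and the colonocyte markers Car4 and Cdx1, all of them higher except Sp1. The sensors best known for Abcc2, Abcc3 and Abca1 were not called: the pregnane X receptor Nr1i2 was at -0.34 ± 0.13 on 3 arrays, Nfe2l2 (NRF2) at 0.12 ± 0.15 and the liver X receptor Nr1h3 at 0.28 ± 0.11 (adjusted p = 0.0734, 0.527 and 0.0809). Among 19 partners in cholesterol efflux and uptake, 3 were higher and 3 lower, with a median of -0.15. Apoe, a lipid acceptor for Abca1 made in quantity by macrophages, was lower at -1.22, -1.33, -1.27 and -2.14 (mean -1.49 ± 0.17, adjusted p = 0.00475). Apoa2 on 2 arrays and Pltp were lower too (-1.64 ± 0.44 and -0.70 ± 0.08). The Apoa2 values were -0.78 on replicate 1 and -2.50 on replicate 3. The lipase gene Lipg was at least 1.53-fold higher (adjusted p = 0.00509). Its Cy3 signal was at background throughout, so it entered through the resveratrol channel.

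Of 17 genes for peroxisomal oxidation and import, the pathway that Abcd proteins feed, 3 were higher and 2 lower, with a median of 0.08. The highest was Crat, carnitine acetyltransferase (0.68 ± 0.11, adjusted p = 0.00883), followed by catalase, Cat (0.55 ± 0.13, adjusted p = 0.0206). Amacr had the lowest mean (-1.32 ± 0.36), with replicate 3 at -2.77 and the other arrays at -0.84, -0.56 and -1.10. Acox3 was at -0.35 ± 0.11. Of 8 peptide loading genes, Tap1 and Tap2 included, 3 were higher and none lower: B2m (0.85 ± 0.26), Psmb9 (0.64 ± 0.15) and Tapbp (0.37 ± 0.11). Beside Cftr, the potassium channel gene Kcnj11, whose product pairs with Abcc8 and Abcc9, was lower at -0.55 ± 0.08 (adjusted p = 0.00671), while Abcc8 and Abcc9 themselves were too dim to test.

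Markers of the cells in the mucosa were counted in the same way, again beside 25.7% higher and 19.6% lower over all 9428 genes. Of 16 tested absorptive colonocyte markers, 6 were higher and none lower, with array medians from 0.04 to 0.90, and all 16 were well above background on some array. Of 5 goblet cell markers 2 were higher and none lower, with array medians on both sides of 0 (-0.27 to 1.07). The mucin gene Muc2, 1 of the 2, had the largest mean of the 5 (1.63 ± 0.20). Of 7 monocyte and macrophage markers 6 were lower (array medians -0.90 to -0.52), as were 4 of 4 neutrophil markers (-3.03 to -0.94), 6 of 8 T and NK cell markers (-0.63 to -0.27), 4 of 6 endothelial markers (-0.73 to -0.06) and 6 of 10 fibroblast and smooth muscle markers (-2.08 to -0.72). Pancreatic genes, from a tissue outside the colon, had 6 of 7 lower (-1.71 to -0.78), and erythrocyte markers had 4 of 5 lower and 1 higher (-0.68 to -0.51). Whether these marker levels have a part in the higher Abcc3 or in the 4 lower lipid export probes was not tested.

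**Figure D4:**
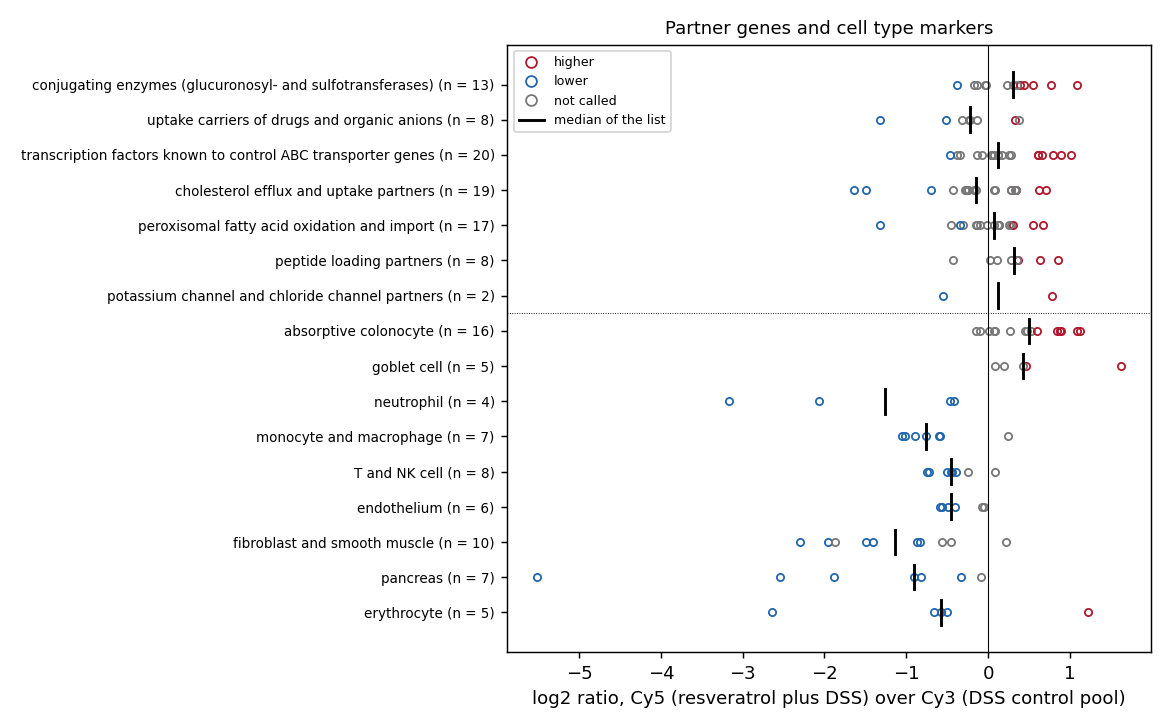
Mean log2 ratios (resveratrol plus DSS over the DSS control pool, x axis) of tested genes in 7 lists of transporter partners (above the dotted line) and 9 lists of cell type markers (below it), with n tested genes each. Circles are genes, red if higher, blue if lower and grey if not called, and black bars are list medians. Conjugating enzymes have a median of 0.31 and absorptive colonocyte markers 0.50, while macrophage markers have -0.76.

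How firm the member calls are varied with the slide and the centring. No member differed between slides at an adjusted p of 0.05 (limma, 0 of 22 tested, 2 with an unadjusted p under 0.05; over all probes 0 of 16169, with 3164 unadjusted). Outlier flags were unevenly placed, with 14 of 134 member spots flagged on slide 1 and 45 of 134 on slide 2. Over the whole array, 3.45% and 4.68% of spots were flagged on replicates 1 and 2 (slide 1). On replicates 3 and 4 (slide 2) the shares were 11.03% and 13.69%. Abcc2, printed at 10 of the member spots per array, had 3, 2, 10 and 10 of them flagged on replicates 1 to 4. Whether members were flagged more often than other probes was not tested. Centring each array on its median in place of loess moved the median of all probes to 0.20, and 6852 probes were then higher and 1839 lower, in place of 4597 and 4289. Members then split into 7 higher and 2 lower. Both Abcc3 probes, Abcd3, Abcb8 and Abcb9 kept their calls there, and of the 13 called probes these 5 were the ones that did. With standard errors widened by the square root of 2, as if the pool varied like the treated mean, both Abcc3 probes, Abcb6 and Abcb9 were the 4 still called. Taking the scanner's own processed signals in place of normexp, with loess kept, gave larger sizes for some dim members. Abcc5 was then at 0.83, Abcb8 at 0.90, Abca1 at -0.63, Abcg8 at -0.61 and Abcd2 at -0.63, each still called. Base composition was alike among the members, with a median GC content of 45% in the higher, lower and uncalled probes alike. An enriched hexamer was carried by 1 of the 5 higher probes and by none of the 8 lower ones, where 15.4% of all tested probes carry one.

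**Figure D5:**
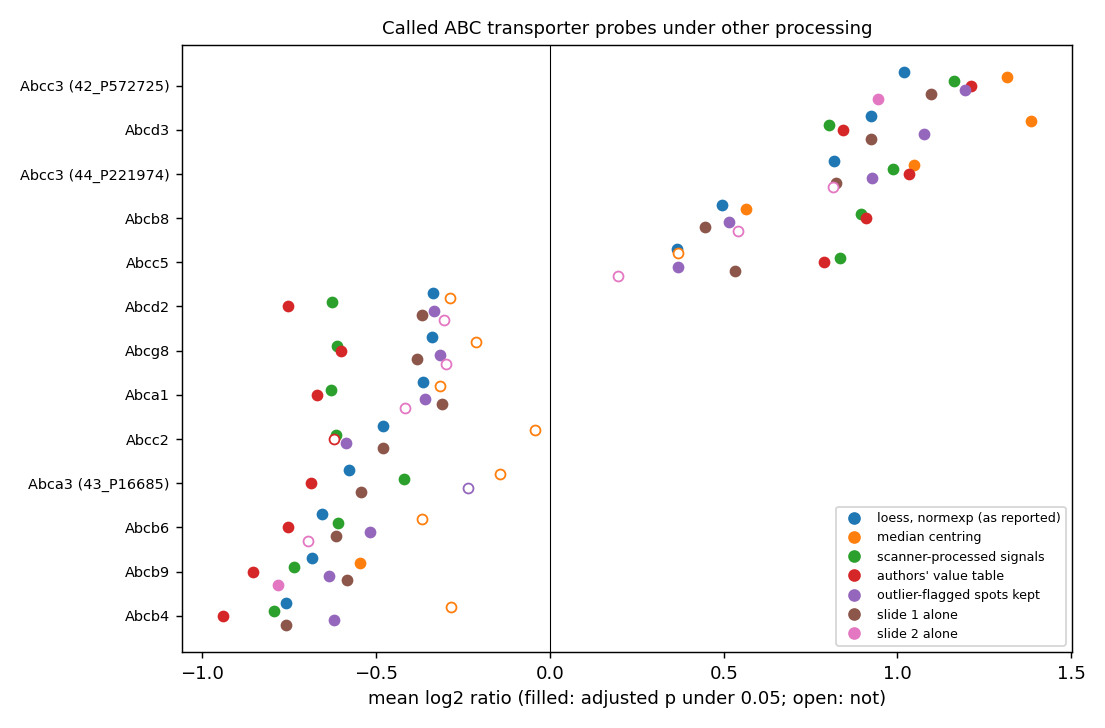
Mean log2 ratio (x axis) of the 13 called ABC transporter probes (rows) under 7 ways of processing (colours), filled where the adjusted p was under 0.05 and open where it was not. The Abcc3 probes lie between 0.81 and 1.32, and the probes of Abcc2, Abca3 and Abcb4 are each closest to 0 under median centring.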

How the data were processed

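RNA from colon mucosa was compared on 4 two-colour Agilent arrays on 2 slides, with Cy5 and Cy3 contents per the labels. The deposited spot intensity values were made, per the file headers, with Agilent Feature Extraction 9.5.3.1. The deposited log10 ratio of each spot was not used. A value table of the authors holds log2 ratios (24197 rows, all matched to the array). It followed the scanner ratios with r from 0.98 to 0.99 and slopes from 0.97 to 1.00, which settles scale and direction, while its centring is unknown (column medians -0.01, -0.01, 0.09 and -0.02). It served as an alternative. The submitters' processing notes name limma and Agilent Feature Extraction, with versions not given in the sources used here.

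Mean signals and local background medians were corrected with normexp (offset 50) and loess-normalized array by array with limma 3.58.1 (R 4.3.3). The 1639 control spots of 45018 and all outlier-flagged spots had weight 0. Spots of a probe were averaged. A probe entered if well above background in a channel on at least 3 arrays (20409 probes) and was tested if it kept at least 2 values (18869). Mean log2 ratios were set against 0 by lmFit and eBayes, two-sided, with Benjamini-Hochberg adjustment over all tested probes. Values after ± are moderated standard errors unless an SD is named. Folds given as "at least" set the bright channel against the dimmest signal still well above background, per channel after Aquantile scaling, and are open to dye bias. The share of spots clear of background was 42.8% to 57.1% per channel, and arrays correlated at 0.70 to 0.89. With 4 arrays, their number sets the precision.

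A few genes that the counts include are not reported here by name. The members, lists, roles and genes to name were chosen with earlier results of these data known. Always named were the conjugate carriers and lipid exporters. Other members were named with every array where called at an absolute log2 ratio of 0.5 or more, and from each partner list up to 3 called genes in its main direction and up to 2 in the other. The regulators not called, Muc2, Car4, Cdx1 and the relatives of Abcg3 were named after their values were seen. Names were matched to RefSeq (GRCr8) for 57 of the 58 probes. Samples are replicates 1 to 4 of 1 group, numbered in accession order. Alternatives were other background corrections, centring, filters and priors, flagged spots kept, single slides, single arrays left out, a slide block, a wider standard error and the authors' table. Flagged spots that were kept also had weight in the loess, so unflagged values changed as well.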

Additional observations from a re-analysis of the deposited data

Results flagged for a closer look

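Of 42 member probes with 4 values, 1 had an array far from the others: the second Abcb9 probe, on replicate 4, at a log2 ratio of 0.146, with the other arrays between -0.10 and -0.06. Both channels of this probe were at background level throughout, and it was not tested. Chance alone flags about 1 in 20 groups of 4.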

How the results depend on the processing

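Over 489 values of the 30 tested members under other settings, called members kept direction and call in 170, kept the direction but missed the threshold in 43 and changed sign in none. Members not called kept both in 229, passed the threshold in 33 and changed sign in 14. The higher probes, 5 as reported, numbered 9 with outlier-flagged spots kept or on slide 1 alone, 3 where both channels had to be above background on all arrays, 2 with the wider standard error, 1 on slide 2 alone and 2 to 6 with 1 replicate left out (2 without replicate 1 or 2). The lower probes, 8 as reported, numbered 2 under median centring or with the wider standard error, 14 with flagged spots kept, 3 with both channels above background, 5 with values on all 4 arrays, 1 on slide 2 alone and 2 to 10 with 1 replicate left out (2 without replicate 1 or 2). Median centring brought Abca12 to 0.026, the third Abca3 probe to 0.012, Abcg4 to 0.11 and an Abcf1 probe to 0.36, the last also at 0.16 with flagged spots kept. With 1 replicate left out Abca12 ranged from -0.18 to 0.068, Abcc1 from -0.061 to 0.14 and another Abcf1 probe from -0.11 to 0.24. This Abcf1 probe was at -0.17 with processed signals, -0.25 on slide 2 alone and -0.028 in the authors' table. The cause of these changes was not tested. Signal over background kept 23 of the 58 probes from being tested.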
